A study of Homo sapiens with 12 samples.

Results

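The 9 genes described here encode cytokines, chemokines and a cytokine receptor that epithelial cells can express. They are the chemokines CXCL8 and CCL2, the interleukin-1 genes IL1B and IL1A, the IL-6 family cytokines IL6, IL11 and LIF, the growth factor CSF2 and the receptor chain IL7R. They were taken as a list of gene symbols from 43481 genes, and each was measured as the sum of the estimated read counts of its annotated transcripts. The cells were RPE-1, an established human cell line derived from retinal pigment epithelium. All were deprived of fetal calf serum (FCS) and glucose for 24 h. Of the 4 groups, 3 then received medium with 10% FCS and 5 g/l glucose for 4 h. The DMA cells received 100 µM dimethyl amiloride, an inhibitor of Na+/H+ exchangers, during those 4 h. The C646 cells received 10 µM C646, an inhibitor of the acetyltransferases p300 and CBP. The solvent cells received DMSO, the carrier of both compounds, and the starved cells received no refeeding. Each group had 3 libraries of poly-A RNA, numbered from 1 to 3. The labels do not say that these were separate cultures, so p-values measure only the spread between these samples, which may be technical.

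Cytokines and chemokines are secreted proteins that carry signals between cells. Epithelial cells make many of them at a low level at rest and transcribe their genes quickly when growth factors, stress or microbial products reach the cell. Their promoters are bound by inducible factors such as AP-1, NF-kB and STAT proteins, and their mRNAs are often short-lived, because AU-rich stretches in the 3′ untranslated region (UTR) recruit proteins that start decay. Retinal pigment epithelium is known to secrete CXCL8 and CCL2, which attract neutrophils and monocytes into the eye.

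The libraries held 14910516 to 28968510 estimated counts, so the limit of 3 counts corresponded to 0.104 to 0.201 CPM, which are counts scaled to library size. Libraries with the number 3 stood apart in each of the 4 groups on the second principal component of all genes, which held 14.6% of the variance, at -27.6 in DMA, -36.7 in C646, -32.5 in solvent and -32.6 in starved cells, while the other libraries lay between -2.66 and 27.1. Solvent library 1 stood apart on the next component, which held 13.4%. Of the cell line's markers, the keratins KRT8 and KRT18 averaged 333 and 499 CPM over the 12 libraries, while the epithelial genes CDH1, EPCAM and KRT19 had at most 6, 2 and 7 counts in any library. The eye transcription factor OTX2 averaged 13.1 CPM, and MITF had 17.4 to 30.99 CPM in DMA, 19.7 to 32.4 in C646, 17.8 to 33.6 in solvent and 52.0 to 55.4 in starved cells. The list of 12 pigment epithelium genes, 6 of them tested, summed to 32.6 to 53.7 CPM in DMA, 37.3 to 52.8 in C646, 30.04 to 51.3 in solvent and 67.2 to 80.2 in starved cells. The list of 7 fibroblast genes, 4 of them tested, summed to 163 to 275 CPM in DMA, 159 to 286 in C646, 147 to 218 in solvent and 95.5 to 157 in starved cells. Most of that sum was THY1, at 139 to 247 CPM in DMA, 131 to 243 in C646, 127 to 199 in solvent and 60.7 to 94.6 in starved cells. PDGFRB instead reached its highest values in starved cells, at 30.7 to 54.7 CPM. It had 19.5 to 25.4 CPM in DMA, 24.0 to 33.3 in C646 and 14.4 to 16.9 in solvent cells. Of the collagens, COL1A1 had 24 to 230 counts per library, while COL1A2 and COL3A1 had at most 3 and 5. The part of these moves in the differences from starved cells was not tested. Some genes of mature pigment epithelium were near absent, with at most 4 counts of RPE65, 7 of RLBP1, 1 of TYR and 0 of TTR in any library. Others of that list were detected in every library at a low level, with 15 to 89 counts of BEST1, 25 to 77 of LRAT and 8 to 18 of PMEL. Leukocyte genes, 10 in all with 6 passing the filter, summed to 2.56 to 4.20 CPM in DMA, 1.33 to 4.07 CPM in C646, 1.16 to 3.96 CPM in solvent and 1.28 to 2.26 CPM in starved cells. Of these, the T cell marker CD3E had at most 2 counts in any library. Other leukocyte genes reached more, up to 34 counts for CSF1R, 26 for HLA-DRA, 21 for CD14, 20 for ITGAM and 15 for PTPRC. In bulk RNA, fewer cells of a type and less RNA per cell cannot be told apart. Fold changes are relative to the scaling of the libraries by the trimmed mean of M-values (TMM). Scaling to spike-in control counts instead moved the median log2 fold change of all genes to 0.60 in solvent, 0.81 in DMA and 0.73 in C646 against starved cells, to 0.22 in DMA and 0.13 in C646 against solvent cells, and to 0.10 in DMA against C646 cells. Each call on the 9 genes kept its direction under that scaling, while differences from starved cells shifted upward, to 3.10 for LIF in solvent cells and to -0.95 for IL1B in C646 cells (adjusted p = 0.0242).

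All 9 genes passed the filter on low counts, so none was too low to test, but they differed widely in level. Per transcript length, as TPM (a length-corrected share of each library), the median over the 12 libraries was 162 for LIF, 38.1 for CCL2, 34.3 for IL1B, 18.1 for CXCL8, 12.3 for IL11, 8.58 for IL6, 6.97 for CSF2, 6.01 for IL7R and 0.696 for IL1A. IL1A was at the edge of measurement, with 3 to 76 estimated counts per library and C646 library 2 at the limit of 3 counts. CSF2 reached down to 9 counts, IL7R to 18 and IL6 to 43, while the remaining 5 genes had at least 132 counts in every library. The ratio of the highest to the lowest group mean was 16.8 for IL7R, 7.88 for CSF2, 7.44 for LIF and 5.81 for CXCL8, and it was 1.44 for IL6. IL6 therefore varied least between the groups and IL7R most.

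**Figure D1:**
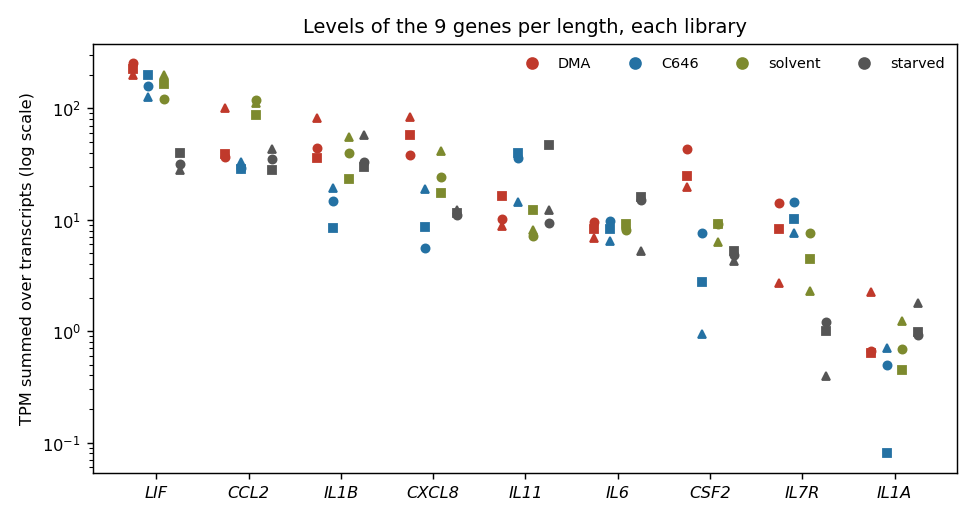
TPM summed over the transcripts of each gene on a log scale, 1 point per library (circle library 1, square library 2, triangle library 3), with the groups DMA, C646, solvent and starved side by side for each gene. LIF has the highest median (162 TPM) and IL1A the lowest (0.696 TPM), and the starved libraries of LIF and IL7R lie below all others.

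The promoters of 7 of the 9 genes were found in the RefSeq table for GRCh38.p14, as the 250 bases before and 50 bases after the start. CCL2 and LIF had no entry. Shown here are those of CXCL8, IL1B and CSF2, the inflammatory genes that were higher in DMA than in C646 cells, and of IL11, whose value ran the other way. They are read 5′ to 3′ on the gene's strand and cover chr4:73740319-73740618 (plus strand), chr2:112836730-112837029 (minus), chr5:132073539-132073838 (plus) and chr19:55370414-55370713 (minus). Capitals mark matches to AP-1 (TGANTCA) and TATAAA in CXCL8, to STAT (TTCNNNGAA) in IL1B and CSF2, and to AP-1 in IL11.

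CXCL8: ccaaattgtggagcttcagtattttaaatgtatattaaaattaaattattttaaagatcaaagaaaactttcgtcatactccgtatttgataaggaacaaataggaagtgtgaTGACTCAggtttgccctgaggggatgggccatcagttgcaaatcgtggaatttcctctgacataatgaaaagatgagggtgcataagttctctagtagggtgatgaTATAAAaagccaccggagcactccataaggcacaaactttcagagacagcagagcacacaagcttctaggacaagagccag
IL1B: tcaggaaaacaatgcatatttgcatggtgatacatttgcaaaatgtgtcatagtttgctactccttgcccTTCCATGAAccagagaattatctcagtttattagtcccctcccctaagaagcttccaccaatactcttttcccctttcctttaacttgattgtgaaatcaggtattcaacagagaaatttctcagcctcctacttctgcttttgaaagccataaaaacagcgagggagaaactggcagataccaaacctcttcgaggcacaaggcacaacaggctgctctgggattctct
CSF2: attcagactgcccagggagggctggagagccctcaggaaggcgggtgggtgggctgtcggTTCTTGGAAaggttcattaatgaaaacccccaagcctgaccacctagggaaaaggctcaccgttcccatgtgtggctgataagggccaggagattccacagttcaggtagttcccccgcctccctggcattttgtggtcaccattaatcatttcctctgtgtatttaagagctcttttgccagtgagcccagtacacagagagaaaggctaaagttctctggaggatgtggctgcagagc
IL11: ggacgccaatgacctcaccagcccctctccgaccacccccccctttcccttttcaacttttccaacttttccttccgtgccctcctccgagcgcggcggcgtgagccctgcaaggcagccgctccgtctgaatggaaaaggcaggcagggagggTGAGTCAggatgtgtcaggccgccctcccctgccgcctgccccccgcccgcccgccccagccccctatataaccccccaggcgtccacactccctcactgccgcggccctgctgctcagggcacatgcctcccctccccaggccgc

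Each motif was searched on both strands, and none of the printed matches overlaps another motif. AP-1 letters stood 137 bases before the start in CXCL8 and 96 before it in IL11, and IL1A held 2 copies. Across all 35116 promoters of the same length, 7.71% held that motif. STAT letters stood 180 bases before the start of IL1B and 190 before that of CSF2, against 7.66% of all promoters. TATAAA lay 31 bases before the start of CXCL8, 29 and 60 before that of IL7R (at 60 on the opposite strand) and 239 before 1 of 2 starts of IL1A, against 11.5%. The NF-kB consensus was matched in IL6 alone, 73 bases before its start (11.3% of all promoters), and CRE letters (TGACGTCA, 1.85% of all) in none of the 7. None of these exact patterns was matched in all of CXCL8, IL1B and CSF2, and AP-1 letters were matched in both CXCL8 and IL11. Inexact matches were not searched, so a site with other letters can be missed. Whether any motif bears on the differences between the groups was not tested. A match describes letters in this window and is not a site of binding.

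The 3′ UTRs were read from the most counted transcript of each gene in GENCODE 29. The pentamer ATTTA, the core of AU-rich elements, occurred 12 times in IL7R, 9 in CXCL8, 9 in IL11, 8 in CSF2, 7 in LIF, 6 in IL1B, 5 in IL1A, 2 in IL6 and 1 in CCL2. Among 12890 tested genes with a 3′ UTR, 68.7% held at least 1 copy, and the median density was 1.59 copies per kilobase. CSF2, with 25.2 copies per kilobase, and IL6, with 12.8, were the densest of the 9. IL7R and LIF, with 3′ UTRs of 3117 and 3204 bases, had 3.85 and 2.18 copies per kilobase. The IL6 count and density rest on the 156 bases of 3′ UTR of IL6-202, a transcript that ends before IL6-201 does. The longer motif TTATTTATT, found in 8.27% of those genes, occurred in IL11 (6 copies), CSF2 (3), IL1B (2), LIF (2) and CXCL8 (1). The stretch of 30 bases with most copies is shown for the same 4 genes as above, with ATTTA in capitals.

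CXCL8 3′ UTR: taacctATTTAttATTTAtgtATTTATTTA
IL1B 3′ UTR: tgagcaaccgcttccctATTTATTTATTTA
CSF2 3′ UTR: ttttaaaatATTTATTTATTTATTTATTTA
IL11 3′ UTR: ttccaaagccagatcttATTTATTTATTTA

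In CSF2 the capitals form an unbroken run to the end of the window, from 5 overlapping copies, while CXCL8 has 4 and IL1B and IL11 have 3 each. Each window was chosen for its number of copies, and the share of all genes with such a run was not counted. The best windows of IL7R and CCL2 held 1 copy each. Decay of the mRNAs was not measured, and its part in the differences between the groups was not tested.

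Refeeding with solvent, set against starvation, asks how serum and glucose change these genes within 4 h. LIF, CCL2 and IL7R rose, and no member fell past the test. edgeR's quasi-likelihood test with Benjamini-Hochberg adjustment over 15263 genes called 3 of the 9, all higher, where it called 24.3% of all genes tested and 12.6% higher. The libraries of solvent and starved cells did not overlap for 5 of the 9 genes, against 40.0% of all genes. The median log2 fold change of the 9 was 0.76, against 0.0032 for all genes.

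LIF, a cytokine that signals through LIFR and IL6ST to STAT3, lies on chr22:30240447-30246851. It measured 348, 453 and 505 CPM in solvent libraries 1 to 3 and 80.3, 82.4 and 74.1 CPM in starved libraries 1 to 3. Every solvent library stood far above every starved one, by 2.46 ± 0.14 on the log2 scale (SE, adjusted p = 5.7e-07), or 5.51-fold. The rise was also present under both inhibitors, at 2.89 ± 0.14 in DMA and 2.32 ± 0.14 in C646 cells against starved cells (adjusted p = 1.3e-07 and 1.1e-06). In starved cells it averaged 78.9 ± 4.32 CPM (SD, n = 3).

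IL7R encodes the chain that binds interleukin-7 and, with a partner, the cytokine TSLP, and is best known from lymphocytes. The gene (chr5:35852695-35879603) measured 22.5, 14.6 and 6.93 CPM in solvent libraries 1 to 3, and 3.26, 0.754 and 1.28 CPM in starved libraries 1 to 3. The groups did not overlap, and solvent library 3 came nearest to the starved range. The log2 fold change was 3.03 ± 0.65 (SE, adjusted p = 0.0056), or 8.18-fold, and it was 3.91 without starved library 1. Its values in DMA cells, 37.1, 22.9 and 8.51 CPM, and in C646 cells, 41.7, 24.1 and 23.1 CPM, were also above those of every starved library. Both differences from starved cells passed the test, at 3.67 ± 0.66 for DMA (adjusted p = 0.0018) and 4.04 ± 0.66 for C646 (adjusted p = 0.0012), and without starved library 1 they were 4.54 and 4.91. Neither chain that pairs with IL7R was measurable, since IL2RG had at most 6 and CRLF2 at most 4 counts in any library.

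CCL2, a chemokine that attracts monocytes (chr17:34255218-34257203), measured 50.6, 40.7 and 50.3 CPM in solvent libraries 1 to 3, and 14.8, 12.2 and 21.0 CPM in starved libraries 1 to 3. The ranges were well apart, with a log2 fold change of 1.57 ± 0.34 (SE, adjusted p = 0.0055), or 2.97-fold. Against starved cells CCL2 stood at 0.75 ± 0.34 in DMA cells (adjusted p = 0.119), where it was called with the library number as a block (0.67 ± 0.24, adjusted p = 0.0462) and with spike-in scaling (1.60, adjusted p = 0.000139). It stood at -0.26 ± 0.34 in C646 cells (adjusted p = 0.621). Because both comparisons and that of solvent cells share the starved libraries, the direct comparisons with solvent cells below are the test of that difference.

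The other 6 genes did not pass the test between solvent and starved cells. CXCL8, a neutrophil attractant (chr4:73740506-73743716), measured 26.1, 20.8 and 45.6 CPM in solvent libraries 1 to 3 and 9.82, 13.0 and 16.2 CPM in starved libraries 1 to 3. These ranges did not overlap, and the log2 fold change of 1.25 ± 0.47 had an adjusted p of 0.0728. CSF2, which encodes the granulocyte-macrophage colony-stimulating factor (chr5:132073790-132076170), also had groups apart, at 0.76 ± 0.52 (adjusted p = 0.318). IL1B, the secreted interleukin-1 (chr2:112829751-112836903), had 43.9 ± 17.6 CPM in solvent and 44.2 ± 20.5 CPM in starved cells (SD, n = 3 each), a difference of -0.01 ± 0.41. IL11, a cytokine known for its part in fibrosis (chr19:55364389-55370463), had a value of -1.07 ± 0.48 (adjusted p = 0.129) with overlapping libraries, and of -0.25 without starved library 2 (adjusted p = 0.711). IL1A (chr2:112773915-112784590), the alarmin form of interleukin-1, and IL6 (chr7:22725884-22732002), an acute-phase cytokine, had values of -0.67 ± 0.67 and -0.44 ± 0.34, with overlapping libraries.

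**Figure D2:**
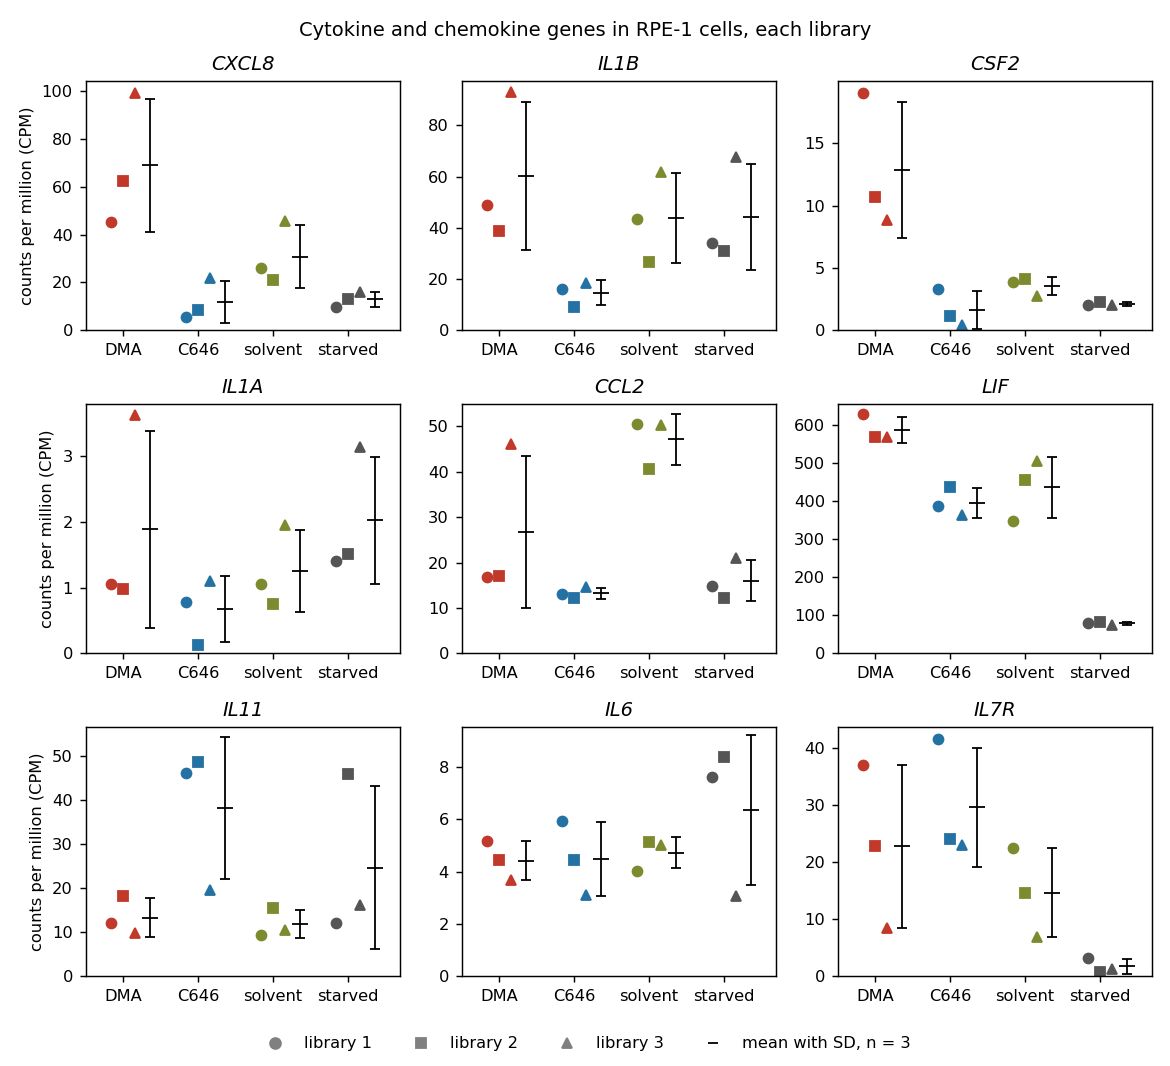
CPM of each of the 9 genes in each library (circle library 1, square library 2, triangle library 3) with the mean and SD of 3 libraries beside the points, in DMA, C646, solvent and starved cells. CXCL8, IL1B and CSF2 are higher in all DMA than in all C646 libraries, CCL2 is higher in all solvent than in all C646 libraries, and LIF and IL7R are lowest in the starved libraries.

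The comparison of DMA with solvent cells asks what inhibition of Na+/H+ exchange changes during refeeding. None of the 9 genes passed edgeR's test, where 1.75% of all genes did, 0.734% as higher and 1.02% as lower. At an unadjusted p under 0.05 there were 4 (CXCL8, LIF, CCL2 and CSF2), against 19.4% of all genes, and DESeq2 called 2, against 7.30%. Libraries did not overlap for LIF and CSF2, 2 of the 9, against 23.2% of all genes. With the library number as a block, 4 of the 9 were called, against 10.2% of all genes. That fit holds all 12 libraries with the same number effect in each group. The pairing is inferred from correlations in these data and is not given in the labels.

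CSF2 measured 19.0, 10.7 and 8.84 CPM in DMA libraries 1 to 3, and 3.90, 4.08 and 2.76 CPM in solvent libraries 1 to 3. All DMA libraries stood above all solvent ones, and the log2 fold change was 1.84 ± 0.50 with an adjusted p of 0.0767. The adjusted p was 0.0140 in edgeR with the library number as a block and 0.0047 in DESeq2. CSF2 was also called with spike-in scaling, at 1.99 (adjusted p = 0.0046). Against starved cells, at 2.03, 2.26 and 2.07 CPM, the DMA libraries passed the test at 2.60 ± 0.52 (adjusted p = 0.0032), which is 6.05-fold.

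CXCL8 reached 45.2, 62.2 and 99.3 CPM in DMA libraries 1 to 3, against 26.1, 20.8 and 45.6 CPM in solvent libraries 1 to 3. The lowest DMA library lay just under the highest solvent library, but each DMA library was above the solvent library of its own number. The log2 fold change was 1.16 ± 0.46 (adjusted p = 0.189), and 1.15 ± 0.22 with the library number as a block (adjusted p = 0.0109). CXCL8 was also called with spike-in scaling, at 1.45 (adjusted p = 0.0186). Set against starved cells, CXCL8 was called in DMA cells at 2.41 ± 0.48 (adjusted p = 0.0035), or 5.33-fold.

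LIF, at 626, 567 and 567 CPM in DMA libraries 1 to 3, lay above the 348, 453 and 505 CPM of the solvent libraries without overlap, by 0.43 ± 0.13 (adjusted p = 0.103). The block lowered its adjusted p to 0.0406, and DESeq2 gave 0.0382. With spike-in scaling the value was 0.59, with an adjusted p of 0.706. CCL2 took the opposite direction, with 16.9, 17.1 and 46.1 CPM in DMA cells and 50.6, 40.7 and 50.3 CPM in solvent cells. DMA library 3 alone lay within the solvent range. The log2 fold change was -0.82 ± 0.33 (adjusted p = 0.196), and it was -0.94 ± 0.23 with the block (adjusted p = 0.0307). Without DMA library 3 it was called, at -1.48 (adjusted p = 0.0153). With spike-in scaling and all libraries it was -0.51 (adjusted p = 0.802).

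IL1B had 60.3 ± 28.8 CPM in DMA cells and 43.9 ± 17.6 CPM in solvent cells (SD, n = 3 each), a difference of 0.46 ± 0.41 (adjusted p = 0.585). IL7R, IL1A, IL11 and IL6 had log2 fold changes of 0.63 ± 0.55, 0.59 ± 0.66, 0.18 ± 0.48 and -0.10 ± 0.34, each with overlapping libraries. Over the 9 genes, 7 values were positive, with a median of 0.46 against 0.0071 for all genes.

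The comparison of C646 with solvent cells asks what inhibition of p300 and CBP changes during refeeding. CCL2 fell, and it was the only member called, where edgeR called 1.21% of all genes and 0.400% as lower. Unadjusted p was under 0.05 for 5 of the 9, against 16.8% of all genes, and DESeq2 called 3, against 6.11%. Libraries did not overlap for 4 (CCL2 and IL1B lower, IL11 and IL7R higher), against 21.8% of all genes. The block by library number called 5, against 7.86% of all genes.

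CCL2 fell to 13.1, 12.2 and 14.6 CPM in C646 libraries 1 to 3, against 50.6, 40.7 and 50.3 CPM in solvent libraries 1 to 3. The C646 libraries lay close together and far below the lowest solvent library. The log2 fold change was -1.83 ± 0.34 (adjusted p = 0.0268), 3.55-fold lower, and the level in C646 cells overlapped that of starved cells. The size held at -1.77 to -1.93 when any 1 library was left out. The adjusted p was 0.0472 without solvent library 2, and it was 0.118 without solvent library 1, 0.0605 without solvent library 3, and 0.114, 0.0887 and 0.0741 without C646 libraries 1, 2 and 3. With no filter on low counts it was 0.0716.

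IL1B measured 16.2, 9.23 and 18.5 CPM in C646 libraries 1 to 3, below the 43.3, 26.5 and 61.7 CPM of solvent libraries 1 to 3. The difference of -1.58 ± 0.42 had an adjusted p of 0.0875. It was called with the block, at -1.55 ± 0.15 (adjusted p = 0.000197), and by DESeq2 (adjusted p = 0.0327). Against starved cells, at 34.0, 30.9 and 67.8 CPM, IL1B fell in C646 cells by 1.59 ± 0.43 on the log2 scale (adjusted p = 0.0178). That call was lost without starved library 3 (adjusted p = 0.0726), without C646 library 2 (adjusted p = 0.0695) and with no filter (adjusted p = 0.0873).

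IL11 measured 46.1, 48.7 and 19.6 CPM in C646 libraries 1 to 3, and 9.38, 15.5 and 10.6 CPM in solvent libraries 1 to 3. All C646 libraries were higher, by 1.69 ± 0.48 (adjusted p = 0.104), with adjusted p = 0.0176 under the block and 0.0454 in DESeq2. C646 library 3 lay well below the other C646 libraries and nearest to the solvent range. In starved cells IL11 had 12.1, 45.9 and 16.2 CPM, so that starved library 2 lay within the C646 range.

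CXCL8 measured 5.47, 8.35 and 21.8 CPM in C646 libraries 1 to 3, and 26.1, 20.8 and 45.6 CPM in solvent libraries 1 to 3. C646 library 3 lay just above solvent library 2, so the groups overlapped, at -1.38 ± 0.47 (adjusted p = 0.165). Each C646 library was below the solvent library of its own number, and with the block the value of -1.504 ± 0.23 was called (adjusted p = 0.0048). IL7R measured 41.7, 24.1 and 23.1 CPM in C646 libraries 1 to 3, just above the highest of the solvent libraries at 22.5, 14.6 and 6.93 CPM. Its value of 1.01 ± 0.55 (adjusted p = 0.384) was called with the block, at 1.12 ± 0.29 (adjusted p = 0.0399).

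CSF2 had 3.32, 1.17 and 0.411 CPM in C646 libraries 1 to 3, a range that reached down to 9 counts, against 3.90, 4.08 and 2.76 CPM in solvent cells (-1.12 ± 0.52, adjusted p = 0.295). LIF and IL6 had values of -0.14 ± 0.13 and -0.07 ± 0.34, and IL1A, with 3 to 24 counts in C646 cells, had -0.91 ± 0.70. The 9 genes had a median of -0.91 against 0.0109 for all genes, and 2 of the 9 values were positive.

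**Figure D3:**
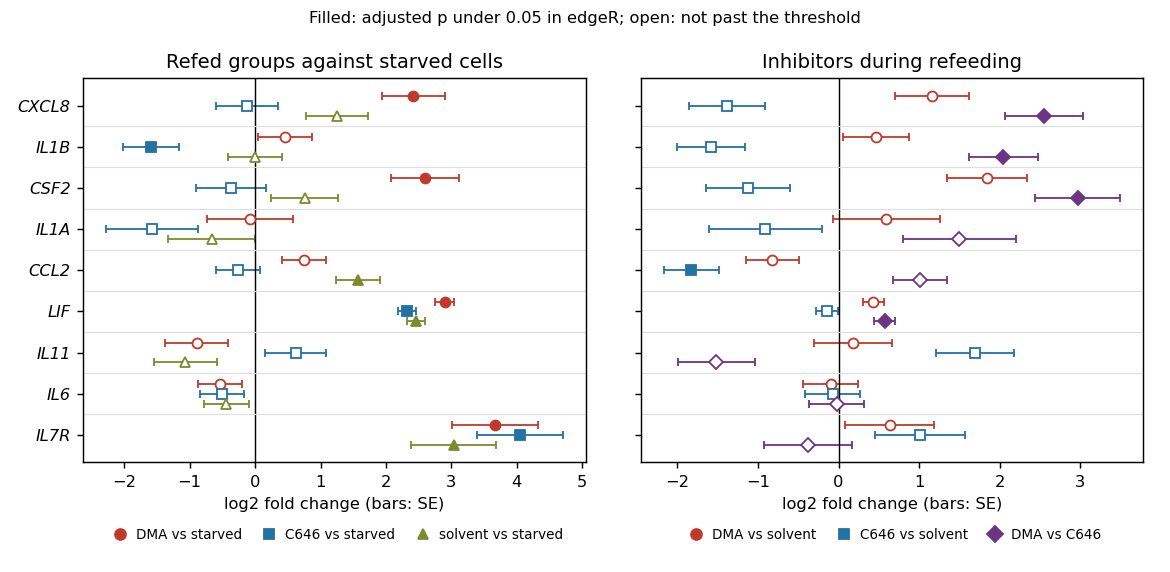
Log2 fold changes with SE from edgeR for each of the 9 genes, on the left for the refed groups against starved cells and on the right for DMA against solvent, C646 against solvent and DMA against C646 cells. Filled symbols mark an adjusted p under 0.05 over all genes. LIF and IL7R are filled in all 3 refed groups, and on the right 5 symbols are filled, CCL2 for C646 against solvent and CXCL8, IL1B, CSF2 and LIF for DMA against C646.

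Set directly against each other, DMA and C646 cells differed in 4 of the 9 genes, CXCL8, IL1B, CSF2 and LIF, all higher in DMA cells. The test called 2.89% of all genes in this comparison, 0.943% as higher and 1.95% as lower. Libraries did not overlap for 6 of the 9 (5 higher and IL11 lower), against 21.6% of all genes. DMA and C646 were given at different doses, 100 µM and 10 µM, so the values describe these 2 treatments as given. The block by library number called 7 of the 9, against 9.81% of all genes.

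CXCL8 had 45.2, 62.2 and 99.3 CPM in DMA libraries 1 to 3 and 5.47, 8.35 and 21.8 CPM in C646 libraries 1 to 3. The lowest DMA library was above the highest C646 library by more than the whole range of the C646 group. The log2 fold change was 2.54 ± 0.48 (adjusted p = 0.0183), or 5.83-fold, and it was 2.18 to 3.32 when any 1 library was left out. CSF2, at 19.0, 10.7 and 8.84 CPM in DMA and 3.32, 1.17 and 0.411 CPM in C646 cells, had the largest fold of the 9, 7.81-fold. Its log2 value was 2.96 ± 0.53 (adjusted p = 0.0123), and it was 2.52 to 4.00 when any 1 library was left out. IL1B, at 49.1, 38.8 and 93.0 CPM in DMA and 16.2, 9.23 and 18.5 CPM in C646 cells, was 4.12-fold higher, by 2.04 ± 0.43 (adjusted p = 0.0268). For none of these 3 genes did a C646 library reach the lowest DMA library.

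LIF differed less, at 587 ± 34.3 CPM in DMA and 395 ± 38.6 CPM in C646 cells (SD, n = 3 each), 1.49-fold or 0.57 ± 0.13 (adjusted p = 0.036). Each call is sensitive to single libraries. The adjusted p of LIF was 0.0542 to 0.123 without any 1 of the 6 libraries. That of CXCL8 was 0.0630, 0.0547 and 0.0733 without DMA library 3, C646 library 1 and C646 library 2. For IL1B it was 0.0912, 0.0880, 0.0988 and 0.0691 without DMA library 3 and C646 libraries 1, 2 and 3, and for CSF2 it was 0.0539 without C646 library 2. With no filter the adjusted p was 0.0793 for CXCL8 and 0.119 for IL1B. With only the DMA and C646 libraries in the fit it was 0.0600 for CXCL8, 0.0698 for CSF2 and 0.0566 for LIF, and with spike-in scaling it was 0.946 for LIF. The direction was the same each time.

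The block added IL1A, IL11 and CCL2 to the calls between DMA and C646 cells. IL11, at 12.1, 18.2 and 9.74 CPM in DMA libraries, lay below the 46.1, 48.7 and 19.6 CPM of the C646 libraries, at -1.51 ± 0.48 (adjusted p = 0.121, and 0.0186 with the block). CCL2 lay higher in all DMA libraries, at 1.01 ± 0.34 (adjusted p = 0.139, and 0.0400 with the block), and DESeq2 gave 0.0379. For IL1A, at 1.05, 0.984 and 3.61 CPM in DMA and 0.787, 0.121 and 1.10 CPM in C646 cells, the value was 1.499 ± 0.70 with overlapping libraries (adjusted p = 0.289, and 0.0441 with the block). IL7R and IL6 had values of -0.38 ± 0.55 and -0.02 ± 0.34.

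Against starved cells, the test called 4 of the 9 in DMA cells, all higher (CXCL8, CSF2, LIF and IL7R), where it called 26.9% of all genes and 13.9% higher. In C646 cells it called LIF and IL7R as higher and IL1B as lower, where it called 24.6% of all genes, 12.9% as higher and 11.7% as lower. With the block, IL1B (0.44 ± 0.14, adjusted p = 0.0278) and CCL2 (0.67 ± 0.24, adjusted p = 0.0462) were added in DMA cells, and IL1A (-1.70 ± 0.42, adjusted p = 0.0067) in C646 cells, where the block called 38.7% and 36.2% of all genes. Libraries did not overlap for 4 of the 9 in each comparison, against 41.6% of all genes for DMA and 40.5% for C646.

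In order of mean CPM, and by the test without the block, CXCL8 and CSF2 ran from DMA through solvent and starved to C646 cells, and no pair of neighbours in that order passed the test. LIF ran from DMA through solvent and C646 to starved cells, and only the last step passed. IL7R ran from C646 through DMA and solvent to starved cells, again with only the last step past the threshold. For CCL2, with solvent cells highest and then DMA, starved and C646 cells, no neighbouring pair passed. IL1B ran from DMA through starved and solvent to C646 cells, and IL11 from C646 through starved and DMA to solvent cells, with no neighbouring pair past the threshold in either. IL1A and IL6 had their highest mean in starved cells and passed the test without the block in none of the 6 comparisons, and the group means of IL6 differed by at most 1.44 times. With the block, the neighbours DMA and solvent differed for CXCL8, CSF2, LIF and CCL2 (adjusted p = 0.0109, 0.0140, 0.0406 and 0.0307), DMA and starved for IL1B and CCL2 (0.0278 and 0.0462), and C646 and solvent for IL1B (0.000197).

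Within the groups, several of the genes followed the library number. CXCL8, IL1B and IL1A were highest in library 3 of each of the 4 groups, on average 0.68, 0.60 and 0.89 above the group mean on the log2 CPM scale, and CCL2 was highest there in 3 of 4. IL7R was highest in library 1 of all 4 groups, by 0.84 on average, and IL11 in library 2 of all 4, by 0.63. CSF2, IL6 and IL7R were lowest in library 3 in 3 of 4 groups. LIF showed no such order, with mean departures of -0.05, 0.06 and -0.01 for libraries 1, 2 and 3. What the numbers stand for is not given in the labels.

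**Figure D4:**
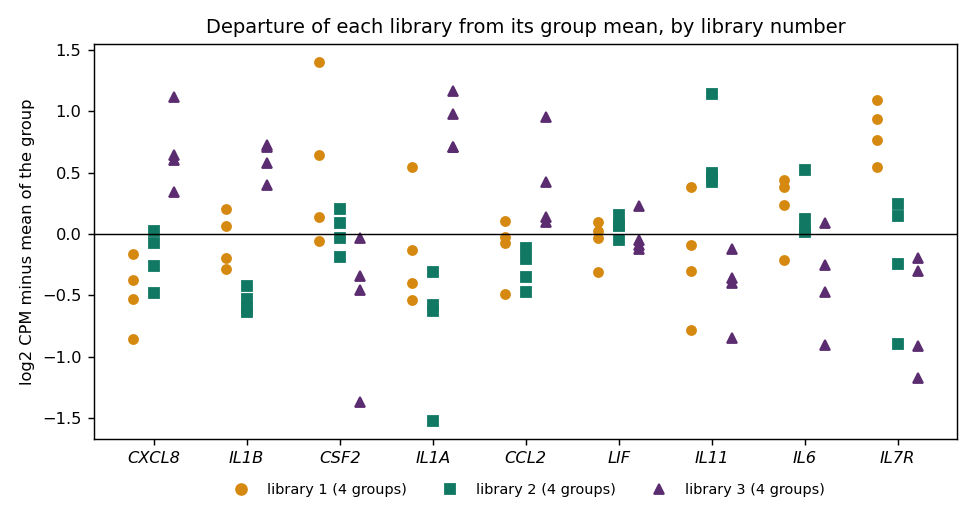
Log2 CPM of each library minus the mean of its group, for the 9 genes, with 4 points per library number (1 for each group). Library 3 lies above 0 in all groups for CXCL8, IL1B and IL1A, library 1 for IL7R and library 2 for IL11, while the points of LIF stay near 0.

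The genes with the most similar pattern were found for each called member by the mean absolute difference of centred log2 CPM over the 12 libraries, among 10959 genes with a mean log2 CPM of at least 2. For LIF these were RGS4 (0.26), RHOB (0.28) and ID1 (0.28), and for IL1B they were SMAD3 (0.32), AC009549.1 (0.36) and FAM167A (0.38). CCL2 was closest to AC004832.3 (0.36), TIPIN (0.38) and SLC26A4 (0.39), and CXCL8 to MTSS1 (0.42), CYP26B1 (0.49) and HIVEP3 (0.50). CSF2 was closest to PLXNA2, HIVEP3 and SPRY1 (0.59 each), so HIVEP3 appears beside both CXCL8 and CSF2. For IL7R the nearest was IL27RA, another cytokine receptor, at 0.71. The measure is not scaled to the spread of a gene, so a gene that varies more has larger distances. The SD of log2 CPM over the 12 libraries was 1.85 for IL7R and 0.84 for CCL2. Among the 9 themselves the closest pair was IL1A and IL1B (0.43), which lie side by side on chromosome 2.

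The receptors through which these cytokines act were partly measurable. The shared chain of the IL-6 family, IL6ST, averaged 503 CPM in DMA, 565 in C646, 491 in solvent and 409 in starved cells, and it rose in C646 against starved cells (0.47 ± 0.14, adjusted p = 0.0255), a call lost without starved library 2 or 3 or C646 library 1 or 3 (adjusted p up to 0.111). LIFR stood at 26.1 to 34.3 CPM in the group means and did not pass in any comparison, nor did IL11RA (4.08 to 4.94 CPM) or IL6R (2.48 to 4.00 CPM). The signalling receptor for interleukin-1, IL1R1, rose with refeeding to 3.18 CPM in DMA, 4.54 in C646 and 4.20 in solvent cells, against 1.30 CPM in starved cells. The adjusted p was 0.0352, 0.0071 and 0.0098. The call in DMA cells was lost without starved library 2 or 3 or DMA library 1 or 3 (adjusted p up to 0.136), and that in solvent cells without starved library 2 (adjusted p = 0.0508). The receptors for CXCL8 (CXCR1 and CXCR2), CCL2 (CCR2) and CSF2 (CSF2RA and CSF2RB) had at most 6 counts in any library.

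Of 35 listed receptors, 23 were tested, and 5 rose and 1 fell in solvent against starved cells, where 24.3% of all genes were called, 12.6% as higher and 11.7% as lower. IL27RA rose by 2.64 ± 0.29 (adjusted p = 7.2e-05). The co-receptor IL1RAP fell by 0.43 ± 0.12 (adjusted p = 0.0195), a direction that turned to 0.17 with spike-in scaling and a call lost without starved library 2 or 3 or solvent library 1. Of 30 other cytokines, 12 were tested, with 2 higher and 1 lower. CLCF1, a cytokine that also signals through LIFR and IL6ST, rose by 0.87 ± 0.18 (adjusted p = 0.0036), and TSLP, an epithelial cytokine bound by IL7R, fell by 1.502 ± 0.32 (adjusted p = 0.0045), a call lost with spike-in scaling (-0.94, adjusted p = 0.202). IL16 was also called higher, but it was at the limit in starved cells (0.07 CPM), and 36.6% of its exon bases overlap another gene. Of 22 other chemokines only 4 were tested. None passed here, and 2 had an unadjusted p under 0.05, as had 5542 of all 15263 genes. In C646 against starved cells CCL3 and CCL26 were called higher, at 2.23 and 1.59 (adjusted p = 0.0434 and 0.0213), where 12.9% of all genes were. Both calls were lost without some single libraries (adjusted p up to 0.160 and 0.125), and 74.6% of the exon bases of CCL3 overlap another gene. The CXCL8 relative CXCL1 had 0 counts in all 12 libraries.

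Among signalling genes, 3 rose and 3 fell of 19 tested in the JAK-STAT pathway between solvent and starved cells, to be read against the same 12.6% and 11.7% of all genes, as are the next counts. STAT3, the main transcription factor downstream of LIF, rose by 0.62 ± 0.10 (adjusted p = 0.00095), and SOCS5, of a family of feedback inhibitors, by 1.00 ± 0.12 (adjusted p = 0.00012). STAT2 and the feedback inhibitor CISH fell by 1.44 ± 0.21 and 1.53 ± 0.45, but neither call held with spike-in scaling (-0.77 and -0.95, adjusted p = 0.0755 and 0.329), and that of CISH was also lost without starved library 1 or 3 or solvent library 1 or 2. Of 19 tested genes of interleukin-1 signalling and processing, 2 rose and 1 fell, among them the inflammasome sensors NLRP3 (1.63 ± 0.39, adjusted p = 0.0087) and NLRP1 (-0.63 ± 0.13, adjusted p = 0.0041, but 0.0039 on the log2 scale with spike-in scaling). Of 20 regulators of AU-rich mRNA decay, all tested, 2 rose and 3 fell. ZFP36, which binds AU-rich elements and starts decay, rose by 0.73 ± 0.21 (adjusted p = 0.0215), a call lost without starved library 1 or 2 or solvent library 2 or 3, while its relatives ZFP36L1 and ZFP36L2 fell by 0.68 ± 0.14 and 0.60 ± 0.16 (adjusted p = 0.0031 and 0.0167), but by only 0.09 and 0.06 with spike-in scaling. The call on ZFP36L2 was lost without starved library 2 or solvent library 2.

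Over these 6 lists together, 97 of 150 genes were tested. In solvent against starved cells 14 were higher and 9 lower, with a median log2 fold change of 0.07, where 24.3% of all genes were called. In DMA against starved cells 21 were higher and 11 lower, against 26.9% of all genes, and in C646 against starved cells 20 were higher and 7 lower, against 24.6%. With spike-in scaling the value turned positive for 4 of the lower genes in solvent, 7 in DMA and 3 in C646 against starved cells. Between the refed groups the shares of all genes called were 1.75% for DMA against solvent, 1.21% for C646 against solvent and 2.89% for DMA against C646 cells. edgeR called 0 of 97 in DMA against solvent cells. There, 19 had an unadjusted p under 0.05, against 19.4% of all genes. DESeq2 called 8, against 7.30% of all genes, and the block 9, against 10.2%. STAT3 alone was called in C646 against solvent cells, at 163 ± 10.7 CPM in C646 and 109 ± 0.239 CPM in solvent cells (SD, n = 3 each), 0.59 ± 0.10 on the log2 scale (adjusted p = 0.0191). That call was lost with spike-in scaling (adjusted p = 0.844) and without solvent library 1 or 2 or C646 library 1 or 3 (adjusted p up to 0.0872). DESeq2 called 7 list genes there, against 6.11% of all genes, and the block 12, against 7.86%. Between DMA and C646 cells 3 were lower. These were IL12A (-1.08 ± 0.25, adjusted p = 0.0348), CASP1, the protease that processes IL1B (-0.85 ± 0.19, adjusted p = 0.0338), and MAPK14, the p38 kinase that acts on AU-rich decay (-0.54 ± 0.11, adjusted p = 0.0203). With spike-in scaling their adjusted p was 0.812, 0.867 and 0.9997, and with only the DMA and C646 libraries it was 0.0925, 0.103 and 0.0608. All 3 calls were also lost without DMA library 2 or 3 or C646 library 1, with that of IL12A lost without DMA library 1 or C646 library 2 too and that of MAPK14 without C646 library 2 or 3. DESeq2 called 9 list genes in this comparison, against 6.35% of all genes, and the block 16, against 9.81%. The growth factor CSF1, from the same list as IL12A, rose in DMA against starved cells, to 343 ± 118 CPM in DMA cells against 102 ± 4.88 CPM in starved cells (1.74 ± 0.37, adjusted p = 0.0051).

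The gene sums rest mostly on 1 transcript for 4 of the multi-transcript genes. CCL2-201 held 91.3% to 96.0% of the gene's TPM, IL1B-201 79.0% to 97.9%, LIF-201 69.4% to 100% and CXCL8-201 68.3% to 100%. The shares ranged more widely for IL11-201 (37.1% to 80.5%), IL6-202 (41.5% to 73.9%) and IL7R-201 (7.34% to 86.1%, the lowest in a starved library with 18 counts). CSF2 and IL1A had a single transcript. IL6 is uncertain, because 20.7% of its exon bases overlap genes on the opposite strand, among them STEAP1B. For LIF that share was 6.73%, and it was 0 for the other 7 genes.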

How the data were processed

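RNA from 12 RPE-1 libraries, 3 in each of 4 groups named by the sample titles, was prepared with a stranded mRNA kit, per the labels' protocols. The submitters' processing notes name Trimmomatic 0.36, STAR 2.7.0e and the build GRCh38.p10. The sources used here name no quantifier, no annotation release and no strand setting for the counting. Per the file headers, the authors deposited estimated counts for each transcript, which are not normalized, together with TPM. TPM were used here only for levels between genes and transcript shares.

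Of 182164 transcripts, 92 were spike-in controls (0.527% to 1.28% of a library) and 264 matched no GENCODE 29 transcript (0.0923% to 0.146%); these stayed out. Expected counts of the other 181808 were summed to 43481 genes and rounded. Low genes were removed by filterByExpr (at least 10 counts a library in enough libraries, 15 in total). Libraries were scaled by TMM and tested with edgeR 4.0.16 (robust quasi-likelihood F-test, all 12 libraries, group means only) in R 4.3.3. P-values were adjusted by Benjamini-Hochberg over 15263 genes, with a threshold of 0.05, for 6 comparisons. CPM are scaled by TMM, and log2 CPM have a prior count of 2. The limit of 3 counts covers counting error only. With 3 libraries against 3, an exact permutation test cannot go below p = 0.10, so none was run. The scripts were tested on simulated counts. No pair of libraries within a group looked like a repeat deposit (chi-square per degree of freedom 20.7 to 54.5).

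The members and lists were chosen with earlier results of these data known. Named genes are the 9 members, the receptors and partners of their products, and for each called member the 3 genes of nearest pattern. List genes were named from up to 2 a direction, in each list and comparison, with the largest change past the threshold. Not every gene that meets this rule is named. CSF1 is named by that rule for DMA against starved cells, and IL6ST was named as a receptor chain.

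Library numbers were taken to pair the libraries where each own-number correlation of deviations from the group means, across genes, exceeds 0.1. They were 0.128 to 0.483 for 5 comparisons. Between solvent and starved libraries of numbers 1 to 3 the values were 0.0957, 0.330 and 0.182, so that comparison is not treated as paired. The replicate block was still a single fit to all 12 libraries, with the same number effect in all 4 groups. Alternatives were DESeq2 1.42.0 (Wald test), its size factors, spike-in scaling, other filters, only the compared groups, the replicate block and leaving out each library.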

Additional observations from a re-analysis of the deposited data

How the results depend on the processing

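Every called member kept its direction under each of the 13 alternatives. Of the 15 calls with 195 alternative values, 29 values were no longer past the threshold, and of the 39 results not called, with 507 values, 34 passed it and 30 changed sign. Without each library in turn, genes called ranged from 2269 to 3450 for solvent against starved cells, 1 to 286 for DMA against solvent, 24 to 135 for C646 against solvent and 180 to 316 for DMA against C646, and members called ranged from 0 to 1, 0 to 1 and 0 to 3 in the last 3 comparisons. The single libraries behind the largest moves were starved library 2 (2269 genes without it); solvent libraries 1 and 2 and DMA libraries 2 and 3 for DMA against solvent (8, 30, 1 and 119); and solvent libraries 1 and 2 and C646 libraries 1, 2 and 3 for C646 against solvent (24, 96, 35, 114 and 66). For DMA against C646 cells, DMA libraries 2 and 3 gave 192 and 180 genes and C646 libraries 1, 2 and 3 gave 185, 218 and 240. There, members called were 1 without DMA library 3 and 1, 0 and 2 without C646 libraries 1, 2 and 3. For C646 against solvent cells, 0 members were called without solvent library 1 or 3 or any 1 C646 library, and for DMA against solvent cells 1 was called without DMA library 3. The cause was not tested.

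Genes called for DMA against solvent, C646 against solvent and DMA against C646 cells, at 267, 185 and 441 in the main analysis, were 1069, 863 and 996 with DESeq2, 91, 100 and 120 with spike-in scaling, 1560, 1199 and 1498 with the replicate block and 31, 71 and 140 with only the compared groups. With no filter they were 455 and 348 for the first pair. Spike-in scaling gave 6574 genes for DMA against starved cells (4109 with TMM). Members called in the same 3 comparisons, 0, 1 and 4, were 2 and 3 with DESeq2 in the comparisons with solvent cells, 2 and 3 there with spike-in scaling, and 4, 5 and 7 with the block. With no filter 0 were called for C646 against solvent and 2 for DMA against C646 cells, against 1.26% and 1.79% of all genes. With only the compared groups 1 was called for DMA against C646 cells, against 0.967% of all genes. Spike-in scaling gave 5 members for solvent against starved cells, where it called 22.4% of all genes. The share of calls that were higher was 94.5% with spike-in scaling and 51.9% with TMM for solvent against starved cells. It was 97.9% and 51.7% for DMA and 97.6% and 52.5% for C646 against starved cells, 93.4% and 41.9% for DMA and 84.0% and 67.0% for C646 against solvent cells, and 44.2% and 32.7% for DMA against C646 cells. DESeq2 and the block each gave 52.5% for C646 against solvent cells, and only the compared groups gave 64.5% for DMA against solvent cells.

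The sign changes were all in comparisons where the gene was not called with TMM and all libraries. With spike-in scaling they were IL1B in solvent against starved cells (0.49), IL6 in solvent (0.23), DMA (0.29) and C646 (0.19) against starved, in DMA against solvent (0.063) and in DMA against C646 cells (0.099), IL1A in DMA against starved cells (0.75), and CXCL8 (0.62), CCL2 (0.43) and CSF2 (0.17) in C646 against starved cells. With no filter IL1B in solvent against starved cells was 0.0082. Without single libraries the values ranged from -0.33 to 0.44 for IL1B in solvent against starved cells, from -0.0050 to 0.79 for IL1B, -0.30 to 1.05 for IL1A, -0.23 to 0.014 for IL6 and -0.11 to 0.42 for IL11 in DMA against solvent cells, and from -0.32 to 0.13 for IL6 in C646 against solvent cells. They ranged from -0.23 to 0.23 for IL6 and -0.92 to 0.013 for IL7R in DMA against C646 cells, from -0.019 to 0.90 for IL1B and -0.98 to 0.37 for IL1A in DMA against starved cells, and from -0.90 to 0.22 for CXCL8 and -1.40 to 0.080 for CSF2 in C646 against starved cells.

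For solvent against starved cells, where the numbers are not taken as a pairing, the replicate block called 5451 genes and 4 members, with CXCL8 added (adjusted p = 0.00199). Each solvent library there correlated best with the starved library of its own number, which is a hint from the data and not from the design. Beyond the changes given beside the results, the block changed no member's call. Depth limits IL1A and, in C646 cells, CSF2, and in starved cells IL7R.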
